A study of Mus musculus with 15 samples.

Results

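Bone marrow cells lacking the RNA component of telomerase were compared with bone marrow cells lacking Puma. The comparison used 8 of the 15 RNA-seq libraries of the study, namely the 4 titled TERC (genotype G3 mTerc-/-Puma+/+) and the 4 titled Puma (genotype Puma-/-), each taken by its own title. Both groups are lineage marker-negative cells, enriched on magnetic columns from marrow of secondary recipients. These are lethally irradiated CD45.1+ mice that had received LSK stem and progenitor cells passed on from a first round of transplantation. G3 marks the third generation of mTerc-/- breeding, the label Puma+/+ marks an intact Puma gene in the 4 telomerase-deficient libraries, and the labels name no mTerc mutation for the 4 Puma-/- libraries. The study also holds 3 WT libraries and 4 libraries labelled G3 mTerc-/-Puma-/-, which are given here only as side values. The enrichment was by lineage markers and not by CD45 allele, so cells that the recipient had kept were not removed by it. The labels give neither the sex of donors and recipients nor whether a library stands for 1 mouse, and p-values therefore measure the spread between these libraries.

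Telomerase adds telomeric repeats to chromosome ends, and Terc is the RNA that serves as its template. Cells with short telomeres activate p53, which stops the cell cycle through Cdkn1a (p21) and promotes apoptosis through Puma, a BH3-only protein of the BCL2 family whose gene is listed as Bbc3. Marrow without lineage markers holds stem cells and early progenitors of the granulocyte, monocyte, erythroid, megakaryocyte and lymphoid lineages. Setting the 2 single mutants side by side asks how marrow that regenerated under telomere shortening differs from marrow that regenerated without this death gene.

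Expression is given as normalized CPM, the reads counted on a gene per 1000000 reads of the library after TMM scaling, which removes differences in library composition. The 8 libraries held 105447530 to 134106521 counts, with TMM factors of 0.926 to 1.07 and 5.96% to 9.92% of counts on mitochondrial genes. Values and tests come from a fit of 14 libraries over all 4 genotypes, with replicate 2 of those labelled G3 mTerc-/-Puma-/- left out because the heatmaps of the study do not draw it. Of 18983 genes that passed the filter on low counts, 18219 are autosomal and are described here, with genes of the X and Y chromosomes left out of every count and list. The progenitor markers Kit (135 to 164 CPM in Puma-/- and 119.5 to 155 in telomerase-deficient libraries), Cd34 (151 to 229 and 160.1 to 226) and the myeloid progenitor gene Mpo (6939.8 to 10957 and 8743 to 12213) were abundant. Ly6g, a marker of mature neutrophils, stayed at 0.0177 to 1.22 and 0.292 to 0.893 CPM, and the T cell gene Cd3e at 4.77 to 23.8 and 3.596 to 26.7 CPM. Ly6g does not stand for all late neutrophil genes. The 19 genes of that list summed to 915 to 2927 CPM in Puma-/- and 1940 to 3288 CPM in telomerase-deficient libraries. Transcripts of immunoglobulin constant regions were also among the abundant ones, as given below.

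The 2 groups differed in transcripts that mark the sex of the cells. Xist, which is made from an inactive X chromosome, had 464 to 865 CPM in the Puma-/- libraries and 0.176 to 88.6 CPM in the telomerase-deficient libraries. The Y-linked gene Ddx3y lay at 0.0177 to 0.0446 CPM and at 42.6 to 48.0 CPM, respectively. For every difference between these 2 groups below, genotype and sex of the cells cannot be told apart. The WT libraries were mixed, with Xist at 417, 211 and 1.72 CPM and Ddx3y at 21.2, 26.4 and 43.0 CPM. Those labelled G3 mTerc-/-Puma-/- in the fit had 660, 0.386 and 443 CPM of Xist and 2.87, 45.9 and 4.25 CPM of Ddx3y.

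The targeted genes followed the labels in the 2 compared groups. Terc (ENSMUSG00000064796, chromosome 3, 96414437 to 96414859 in GRCm38, the build of all coordinates here) had 5, 4, 9 and 11 counts in the Puma-/- libraries and 0, 1, 1 and 1 in the telomerase-deficient libraries. The groups did not overlap, and the ratio of telomerase-deficient to Puma-/- was 0.101 (95% interval 0.0197 to 0.326, counting error only) over 3 and 29 counts in all. With so few counts it did not pass the filter and was compared by exact permutation instead (two-sided p = 0.0286, which 4 against 4 libraries cannot go below). Bbc3 (ENSMUSG00000002083, chromosome 7, 16308393 to 16318205) lay at 5.15, 6.803, 5.02 and 5.05 CPM in the Puma-/- libraries and at 14.7, 20.7, 20.5 and 11.7 CPM in the telomerase-deficient libraries. Every telomerase-deficient library was thus above every Puma-/- library, and the fit gave a log2 fold change of 1.62 (adjusted p = 0.0156, SE 0.253) in the test of edgeR. It passed in 6 of the 8 fits that each left out 1 library and failed without Puma-/- replicate 4 or telomerase-deficient replicate 3. The Puma-/- libraries kept reads on the gene, at 5.51 ± 0.866 CPM (SD, n = 4), beside 17.9 ± 7.27 in WT (n = 3). Where G3 mTerc-/-Puma-/- is the label, Bbc3 stood at 15.4 ± 1.796 CPM (n = 3), which goes against the Puma-/- part of the label. Terc had 0 to 1 counts in the libraries of this label, beside 7 to 17 in WT, as its mTerc-/- part has it. Their Puma genotype, and any side value that depends on it, rests on the label alone.

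Of the 18219 autosomal genes, 138 (0.757%) passed the threshold of 0.05 on the adjusted p (quasi-likelihood test of edgeR, Benjamini-Hochberg adjustment over all 18983 genes). Of these, 34 (0.187%) were higher and 104 (0.571%) lower in the telomerase-deficient libraries, beside 1473 higher and 1635 lower genes at an unadjusted p under 0.05. Counts of list members at an unadjusted p under 0.05, given below, are to be read beside 3108 of all 18219 autosomal genes. Both directions were near balance over all autosomal genes, with 9107 higher, 9112 lower and a median log2 fold change of -7.1e-05. The genes that rose had a median level of 43.8 CPM, not corrected for gene length, and a median log2 fold change of 0.48 (range 0.30 to 2.74), and all 34 are protein coding. The genes that fell had a median level of 3.16 CPM and a median log2 fold change of -1.38 (range -0.51 to -5.29). For comparison, the median level over all autosomal genes was 8.73 CPM. Among the 104 that fell, 84 changed by at least 2-fold, 85 are protein coding and 8 are immunoglobulin segments, whereas 5 of the 34 that rose changed by at least 2-fold. In all 138 genes the 4 libraries of one group lay outside the range of the other, which held for 883 autosomal genes with higher (4.85%) and 1068 with lower values (5.86%) in the telomerase-deficient libraries. The genes named below are those with the largest changes that also passed with all 15 libraries, the members of gene lists that passed, and the 2 members of each list with the largest change. Any other gene was chosen after its values were seen.

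The number of genes past the threshold varied with the libraries and covariates of the fit. With all 15 libraries 17 genes passed (2 higher, 15 lower), all of them among the 138, with standard errors 1.13 times as large at the median and log2 fold changes at 0.9996 times. With the 8 compared libraries alone 114 passed, of which 77 were shared. With the Xist level as a covariate 12 passed, at 0.916 times the log2 fold changes and 1.14 times the standard errors. Leaving out 1 library gave 34, 15, 152 and 12 genes for Puma-/- replicates 1 to 4 and 70, 31, 12 and 40 for telomerase-deficient replicates 1 to 4. The sign of all 138 genes was the same in each of these fits. These genes were chosen in the same libraries and had no overlap there, so the constant sign is no measure of stability. Over the autosomal genes together, genotype accounted for 25.4% of the squared distances between the 8 libraries (exact permutation test over 70 splits, one-sided p = 0.0286, the smallest possible, with a mean of 14.3% over the splits). Without Puma-/- replicate 4 this share was 25.2% (exact p = 0.0571).

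**Figure D1:**
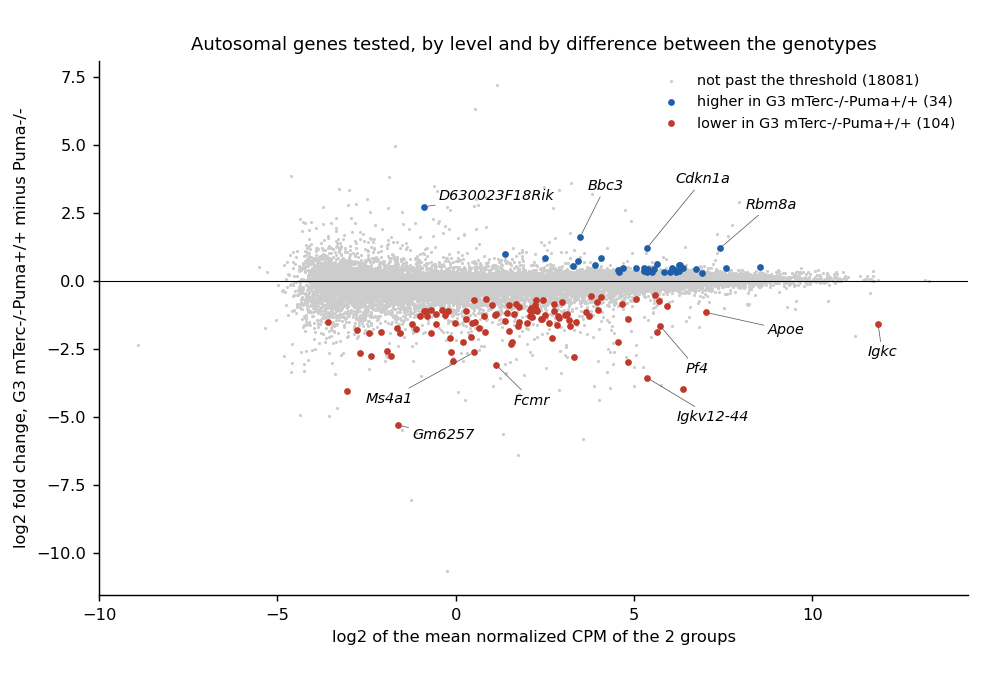
Each point is 1 of 18219 autosomal genes, with the log2 of its mean normalized CPM over the 2 groups on the horizontal axis and its log2 fold change (G3 mTerc-/-Puma+/+ minus Puma-/-) on the vertical axis. The 34 genes that rose (blue) mostly sit close above the zero line, with D630023F18Rik the farthest at 2.74, and the 104 that fell (red) spread from -0.51 to -5.29.

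Genes of megakaryocytes, the marrow cells that shed platelets, formed the list with the lowest median and the most calls. Of its 20 members, 19 were lower in telomerase-deficient marrow, 8 passed the threshold (all lower), 18 had an unadjusted p under 0.05 with lower values, and 16 did not overlap between the groups. The median log2 fold change was -1.30. Their summed level was 745 to 1014 CPM in the Puma-/- and 430.4 to 519.6 CPM in the telomerase-deficient libraries. In RNA from a mixed cell population, fewer cells of a type and less of its RNA per cell cannot be told apart.

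The 4 subunits of the receptor for von Willebrand factor, which tethers platelets to injured vessels, all fell. Gp1ba (ENSMUSG00000050675, chromosome 11, 70639122 to 70642036) lay at 11.6, 13.7, 16.4 and 11.6 CPM in the Puma-/- libraries and at 4.67, 4.15, 5.23 and 5.71 CPM in the telomerase-deficient libraries, a log2 fold change of -1.43 (adjusted p = 0.0103, SE 0.206). The groups were far apart, and it passed in 8 of the 8 fits without 1 library. Gp5 lay at 11.9, 14.1, 22.3 and 13.1 CPM against 5.11, 3.704, 5.78 and 7.34 CPM (-1.48, adjusted p = 0.0433, SE 0.299), and Gp9 at 7.94, 9.55, 14.6 and 8.97 against 3.87, 3.19, 4.65 and 5.096 (-1.29, adjusted p = 0.0310, SE 0.226). Gp1bb lay at 6.84, 8.03, 13.9 and 7.89 CPM against 2.56, 2.71, 3.07 and 4.42 CPM (-1.53, adjusted p = 0.0429, SE 0.300). In each of these genes Puma-/- replicate 3 was the highest library, and Gp5 and Gp1bb passed in 0 of the 8 fits without 1 library. Vwf, the ligand of this receptor, fell from 32.4, 44.5, 46.9 and 39.6 CPM to 12.7, 17.7, 16.2 and 15.99 CPM, a log2 fold change of -1.39 (adjusted p = 0.0156, SE 0.217).

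Pf4, a chemokine stored in platelet granules (ENSMUSG00000029373, chromosome 5, 90772435 to 90773383), lay at 63.2, 72.9, 116 and 67.8 CPM in the Puma-/- libraries and at 19.8, 24.9, 21.4 and 37.03 CPM in the telomerase-deficient libraries (-1.63, adjusted p = 0.0213, SE 0.271). The lowest Puma-/- library was well above the highest telomerase-deficient library, replicate 4. Treml1, a receptor of platelet granules, lay at 10.4, 11.6, 22.9 and 11.5 CPM against 3.58, 3.91, 4.54 and 5.94 CPM (-1.65, adjusted p = 0.0453, SE 0.338). Itgb3, the beta chain of the fibrinogen receptor, lay at 73.003, 73.4, 93.7 and 76.6 CPM against 46.3, 25.1, 47.7 and 48.6 CPM (-0.92, adjusted p = 0.0491, SE 0.193). Its partner chain Itga2b stood at 246 ± 48.4 against 124 ± 16.04 CPM (SD, n = 4 each) and just missed the threshold (-0.99, adjusted p = 0.0507, SE 0.213). Ppbp, another granule chemokine, had a log2 fold change of -1.31 (adjusted p = 0.0804, SE 0.339), and Clec1b, the platelet receptor of podoplanin, of -1.46 (adjusted p = 0.0657, SE 0.347), both without overlap and neither past the threshold. Selp, which encodes P-selectin of platelets and endothelium, was the 1 member with a higher value (0.36, adjusted p = 0.439, SE 0.229). With the Xist level as a covariate 0 of the 8 passed and the median of the list was -0.99, and with all 15 libraries 3 passed. Leaving out Puma-/- replicate 2 or 4, or telomerase-deficient replicate 3, kept 1 of the 8 calls, and leaving out any other library kept 2 to 4.

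**Figure D2:**
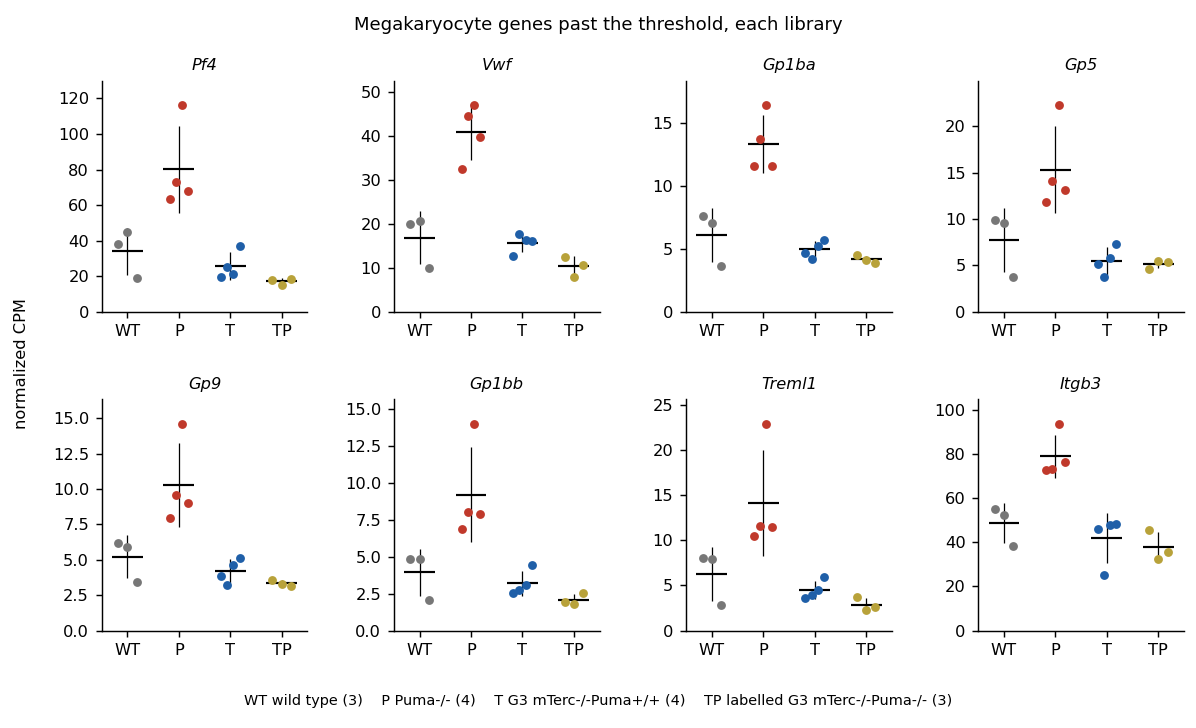
Normalized CPM (vertical axes from 0) of the 8 megakaryocyte genes past the threshold, with a point per library in WT (n = 3), Puma-/- (P, n = 4), G3 mTerc-/-Puma+/+ (T, n = 4) and the libraries labelled G3 mTerc-/-Puma-/- (TP, n = 3), the horizontal bar at the mean and the vertical line its SD. The Puma-/- libraries stand above all others in every panel, and the telomerase-deficient libraries overlap the range of WT.

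The list medians of the 2 genotypes stood on different sides of WT, but none of the 8 calls passed against WT. In edgeR's test the adjusted p was 0.998 for each of them in telomerase-deficient marrow against WT. In Puma-/- against WT the lowest was 0.107, for Vwf. The median of the 20 megakaryocyte genes was 0.99 in Puma-/- against WT and -0.25 in telomerase-deficient marrow against WT, both comparisons sharing the 3 WT libraries, and WT lay nearer to the telomerase-deficient mean for 20 of 20 genes. WT and the telomerase-deficient group both expressed Ddx3y, but WT also held Xist at 1.72 to 417 CPM, so sex is not balanced in this placing. The same count over all autosomal genes is not given here. Vwf, for example, stood at 19.99, 20.6 and 9.85 CPM in the WT libraries. GATA factors and ETS factors direct transcription in megakaryocytes, and the upstream sequences of 2 of the genes that fell are shown for this reason, as the 250 bases before the annotated start in RefSeq (GRCm38.p6). Capitals in the first sequence mark AGATAA, read on either strand, for the first of these families, which 6.25% of 14921 promoters of autosomal genes tested hold in this window. In the second sequence they mark AGGAAGT for the other family, which 7.98% hold. The Gp5 sequence (chr16:30310782-30311031, minus strand) holds its motif 2 times, and the Pf4 sequence (chr5:90772185-90772434, plus strand) holds its motif 1 time. Gp5 has 0 matches to AGGAAGT, and Pf4 has 0 to the motif of the first family.
Gp5: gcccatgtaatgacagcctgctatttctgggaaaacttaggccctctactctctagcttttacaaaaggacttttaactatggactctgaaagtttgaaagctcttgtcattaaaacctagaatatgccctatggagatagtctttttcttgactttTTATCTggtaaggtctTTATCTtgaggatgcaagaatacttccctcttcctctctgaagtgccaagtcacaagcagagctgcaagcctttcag
Pf4: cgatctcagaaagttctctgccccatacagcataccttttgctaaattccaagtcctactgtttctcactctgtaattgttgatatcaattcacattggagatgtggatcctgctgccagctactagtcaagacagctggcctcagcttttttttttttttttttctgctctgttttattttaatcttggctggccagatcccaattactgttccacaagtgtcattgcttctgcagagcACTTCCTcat

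Further genes that fell, outside the rule for naming and picked after their values were seen, have known places in platelets as well. F2rl2, a thrombin receptor, stood at 11.8 CPM in Puma-/- and 4.93 CPM in telomerase-deficient marrow (-1.26, adjusted p = 0.0429, SE 0.248). Gnaz, a G protein alpha subunit of platelets, stood at 5.07 and 1.7999 CPM (-1.49, adjusted p = 0.0429, SE 0.294), and Cavin2, a coat protein of caveolae, at 10.8 and 4.19 CPM (-1.36, adjusted p = 0.0307, SE 0.238). The tyrosine kinase gene Src stood at 5.95 and 2.46 CPM (-1.27, adjusted p = 0.0431, SE 0.253). With all 15 libraries these 4 genes did not pass in edgeR's test (adjusted p = 0.0792 to 0.0941), and without 1 library F2rl2 kept 0, Gnaz 1, Cavin2 2 and Src 1 of 8 calls. Mrvi1, a substrate of cGMP-dependent kinase that the rule did name, lay at 11.5, 11.8, 13.98 and 11.8 CPM against 4.46, 4.62, 5.56 and 6.56 CPM (-1.21, adjusted p = 0.0155, SE 0.185). Its groups were separated by a wide gap, and it passed in 6 of the 8 fits without 1 library.

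Genes of B cells were lower in telomerase-deficient marrow without exception in direction. All 22 members of the list had lower values, 5 passed, 14 had an unadjusted p under 0.05, and 13 did not overlap, with a median log2 fold change of -0.96. The summed level of the list was 3105 to 5256 CPM in Puma-/- and 666 to 1515 CPM in telomerase-deficient libraries. Ms4a1, which encodes the surface antigen CD20 (ENSMUSG00000024673, chromosome 19, 11249675 to 11266241), lay at 2.41, 2.12, 2.497 and 2.83 CPM in the Puma-/- libraries and at 0.358, 0.304, 0.408 and 0.539 CPM in the telomerase-deficient libraries, a log2 fold change of -2.61 (adjusted p = 0.000444, SE 0.270). The kinase gene Blk had 4.93, 4.38, 3.26 and 5.03 CPM against 1.47, 0.598, 0.808 and 2.02 CPM (-1.84, adjusted p = 0.0350, SE 0.332), and its highest telomerase-deficient library, replicate 4, stayed below the lowest Puma-/- library. Fcrla, an intracellular Fc receptor-like protein of B cells, had 6.26, 5.68, 6.42 and 6.53 CPM against 2.71, 2.54, 1.91 and 2.86 CPM (-1.31, adjusted p = 0.00138, SE 0.155) and the tightest groups of these genes. Blnk, an adaptor of the B cell receptor, had 11.8, 9.26, 6.92 and 9.14 CPM against 5.08, 4.05, 2.76 and 5.42 CPM (-1.10, adjusted p = 0.0431, SE 0.218).

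Pax5 and Ebf1, the transcription factors that commit cells to the B lineage, had log2 fold changes of -1.88 (adjusted p = 0.128, SE 0.573) and -0.82 (adjusted p = 0.272, SE 0.365) and did not pass. Rag1, which cuts immunoglobulin genes for recombination, had a log2 fold change of -0.51, with its partner Rag2 at -0.11, and the surrogate light chain genes Vpreb1 and Igll1 at -0.30 and -0.49, all with overlapping groups. Fcmr, the receptor for IgM on B cells (ENSMUSG00000042474, chromosome 1, 130865669 to 130880791), is no member of the list and was the steepest fall among protein-coding genes that met the naming rule. It lay at 3.78, 2.99, 4.17 and 4.704 CPM in Puma-/- and at 0.453, 0.353, 0.350 and 0.698 CPM in telomerase-deficient libraries, a log2 fold change of -3.08 (adjusted p = 7.06e-05, SE 0.264), and passed in 8 of the 8 fits without 1 library. Fcmr and Fcrla also passed as lower in telomerase-deficient marrow than in WT, with log2 fold changes of -1.86 and -1.15 (adjusted p = 0.0230 and 0.0225), beside 1.22 and 0.16 for Puma-/- against WT. These comparisons share libraries with the main one.

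Among plasma cell genes, 7 of 8 were lower and 2 passed, with a median of -0.95. Igkc, the constant region of the kappa light chain (ENSMUSG00000076609, chromosome 6, 70726435 to 70726966), lay at 4979, 6553, 5136 and 5278 CPM in the Puma-/- libraries and at 1061, 3120.4, 1082 and 2164 CPM in the telomerase-deficient libraries (-1.56, adjusted p = 0.0492, SE 0.334). All telomerase-deficient libraries were below all Puma-/- libraries, and replicates 2 and 4 were the higher of them. Sdc1, the surface proteoglycan syndecan-1, lay at 23.7, 23.9, 17.2 and 20.6 against 9.24, 12.5, 7.38 and 12.3 CPM (-1.05, adjusted p = 0.0429, SE 0.204). Jchain, which joins IgM and IgA subunits, had -1.02 and did not pass (adjusted p = 0.220). Of 217 immunoglobulin segments tested, 189 were lower and 28 higher, with a median of -1.48. Of these, 8 passed (all lower), 80 had an unadjusted p under 0.05 with lower and 2 with higher values. Igkv12-44, a variable segment of the kappa chain and the largest fall by the naming rule, lay at 74.99, 93.99, 35.5 and 100.4 CPM against 4.02, 7.68, 10.6 and 3.65 CPM (-3.55, adjusted p = 0.00769, SE 0.495). Segments of this family resemble one another, so reads can be assigned to a neighbour and the value of a single segment is uncertain. Of the 5 B cell calls, 2 were kept without Puma-/- replicate 1 or 4, without telomerase-deficient replicate 2 or 3 and with Xist as a covariate, and 3 with all 15 libraries. Of the 2 plasma cell calls, 1 was kept without Puma-/- replicate 3 or telomerase-deficient replicate 2, and 0 without any other library, with all 15 libraries or with Xist as a covariate.

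**Figure D3:**
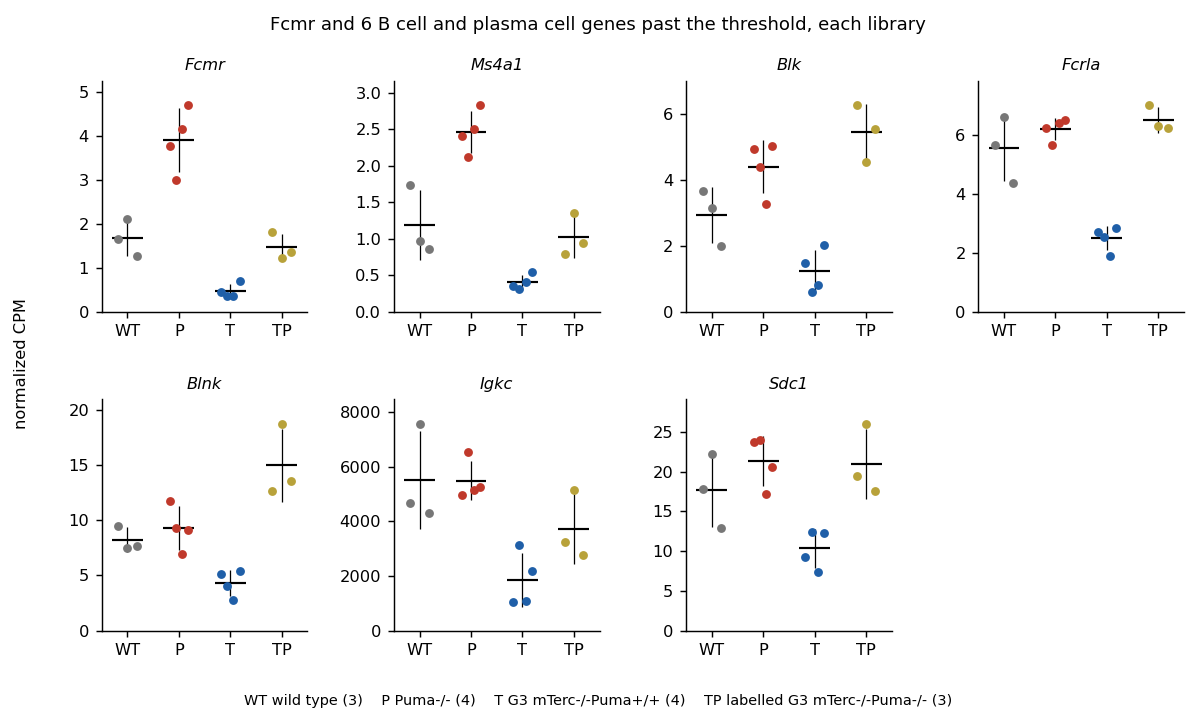
Normalized CPM (vertical axes from 0) of Fcmr and of 6 B cell and plasma cell genes past the threshold in each library, with groups and error bars as in the plot of megakaryocyte genes. The 4 telomerase-deficient libraries lie below the 4 Puma-/- libraries in each panel, and for Igkc the mean of WT (5517 CPM) stands beside that of Puma-/- (5486 CPM).

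Genes of antigen-presenting cells had lower values in telomerase-deficient marrow, and 0 passed in edgeR's test. All 12 MHC class II presentation genes were lower, with a median of -0.62, 9 at an unadjusted p under 0.05, 7 without overlap and 0 past the threshold in edgeR's test (7 passed in DESeq2, a second test for counts). Cd74, the invariant chain that guides class II molecules, lay at 757, 809.7, 818 and 929 CPM in Puma-/- and at 603, 247, 427 and 445 CPM in telomerase-deficient libraries (-0.94, adjusted p = 0.0548, SE 0.214). H2-Eb1, a class II beta chain, lay at 206, 268, 220.4 and 277 against 197, 63.7, 116 and 116 CPM (-0.98, adjusted p = 0.0965, SE 0.271). Replicate 1 was the highest telomerase-deficient library and replicate 2 the lowest for both. In the dendritic cell list 15 of 15 were lower (median -0.78, 12 at an unadjusted p under 0.05, 0 past the threshold, 3 in DESeq2), among them Ccr9, a homing receptor (-1.06, adjusted p = 0.109, SE 0.306), and Pacsin1, an endocytosis adaptor (-0.98, adjusted p = 0.247, SE 0.413). Type I interferon-stimulated genes were lower in 33 of 34 (median -0.34, 15 at an unadjusted p under 0.05, 0 past the threshold, 6 in DESeq2), with Ifit3 at -1.27 (adjusted p = 0.130, SE 0.389) and Ifi44 at -1.01 (adjusted p = 0.150, SE 0.331). Marrow macrophage genes were lower in 15 of 15 (median -0.59, 3 at an unadjusted p under 0.05, 0 past the threshold in either tool), with the complement gene C1qa at 7.61, 11.6, 3.67 and 5.51 against 7.87, 0.696, 1.599 and 3.63 CPM, where telomerase-deficient replicate 1 lay inside the range of Puma-/-. MHC class I and immunoproteasome genes had a median of -0.068, with 11 of 15 lower, 1 at an unadjusted p under 0.05 and 0 past the threshold in edgeR or DESeq2.

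Further genes of myeloid cells that fell were picked after their values were seen. Ace, which encodes angiotensin-converting enzyme, stood at 17.4 ± 7.32 CPM in Puma-/- and 2.496 ± 1.46 in telomerase-deficient marrow (SD, n = 4 each, log2 fold change -2.80, adjusted p = 0.0425, SE 0.528). Adgre4, an adhesion receptor, stood at 10.5 ± 4.32 and 2.44 ± 1.01 CPM (-2.10, adjusted p = 0.0472, SE 0.437), and Treml4, a receptor of myeloid cells, at 7.71 ± 2.43 and 2.91 ± 0.768 CPM (-1.40, adjusted p = 0.0429, SE 0.269). These 3 genes did not pass with the 8 compared libraries alone (adjusted p = 0.0522, 0.0617 and 0.0579 in edgeR) or with all 15, and kept 2, 1 and 2 of 8 calls without 1 library. In the monocyte list the direction was mostly the other, with 10 of 15 higher, 5 lower and a median of 0.091. Its member Emb, which encodes embigin, was higher, at 313, 273, 338 and 304 CPM in Puma-/- against 443, 512, 380.3 and 421 CPM (0.52, adjusted p = 0.0469, SE 0.107). With all 15 libraries Emb did not pass (adjusted p = 0.472 in edgeR's test), and it kept 1 of 8 calls without 1 library. Against WT it had -0.035 in telomerase-deficient marrow and -0.55 in Puma-/-. Ly6c2, a marker of classical monocytes, lay at 707 to 1118 CPM in the Puma-/- and 1230.5 to 1446 CPM in the telomerase-deficient libraries without overlap and did not pass (0.43, adjusted p = 0.138, SE 0.135).

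Among the granulocyte lineages, eosinophil genes were lower in 11 of 11 (median -0.66). Il5ra, the interleukin-5 receptor chain of eosinophils, fell from 0.661, 0.718, 0.651 and 0.897 CPM to 0.307, 0.245, 0.450 and 0.353 CPM (-1.11, adjusted p = 0.0429, SE 0.218). With all 15 libraries Il5ra did not pass (adjusted p = 0.238 in edgeR's test), and it kept 1 of 8 calls without 1 library. It also failed with the 8 compared libraries alone and with Xist as a covariate. Ear2, an eosinophil ribonuclease, had -1.36 (adjusted p = 0.0716, SE 0.333). Of 15 mast cell and basophil genes, 12 were lower and 10 of these had an unadjusted p under 0.05, among them the basophil protease gene Mcpt8 (765, 877, 1221 and 886 CPM against 632, 367, 532 and 717 CPM), with a median of -0.69 and 0 past the threshold (4 lower in DESeq2). The 3 higher members, Mcpt4, Tpsb2 and Cma1, are proteases of connective tissue mast cells and came from telomerase-deficient replicate 1 alone, where Mcpt4 stood at 17.6 CPM and in the other 3 at most at 0.0250 CPM. The same library stood apart in bone matrix genes, with Col1a1 at 1342, 58.8, 263 and 63.2 CPM in the telomerase-deficient libraries and Bglap, which encodes osteocalcin, at 53.9, 1.71, 9.57 and 4.18 CPM, beside at most 94.96 and 1.61 CPM in Puma-/-. Of the 15 stroma and endothelium genes 11 were lower and 4 higher, 6 at an unadjusted p under 0.05, and 0 passed (1 higher and 1 lower in DESeq2), with a summed level of 526 to 3318 CPM in telomerase-deficient and 596 to 1298 CPM in Puma-/- libraries. The part of these cells in the differences above was not tested, and without that library 70 genes passed, 50 of them among the 138.

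Early granulocyte genes had a median of 0.18 with 10 of 12 higher, and late neutrophil genes of 0.14 with 14 of 19 higher, and 0 of either list passed in edgeR's test (0 and 2 at an unadjusted p under 0.05, 0 and 1 in DESeq2). The direction of both medians turned in other fits, to -0.0029 and -0.13 with Xist as a covariate and, for the late neutrophil genes, to -0.17 without Puma-/- replicate 2. Erythroid genes were higher in 19 of 22 with a median of 0.32, and heme synthesis genes in 12 of 14 with a median of 0.084, with 2 and 5 at an unadjusted p under 0.05, 0 past the threshold and 0 and 1 in DESeq2. Groups overlapped for Ermap (5.25, 15.7, 10.5 and 9.68 CPM against 15.3, 5.801, 23.6 and 22.1 CPM), an erythroid membrane protein, with telomerase-deficient replicate 2 in the range of Puma-/-. T and NK cell genes were split evenly, 10 higher and 10 lower, with a median of 0.0063, 1 at an unadjusted p under 0.05 and 0 past the threshold in edgeR or DESeq2, and without telomerase-deficient replicate 1 the median was -0.49.

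Stem cell genes were lower in 17 of 20, with a median of -0.45, 8 at an unadjusted p under 0.05 and 0 past the threshold (4 lower in DESeq2). Esam, an adhesion molecule of stem cells, lay at 5.195, 7.21, 6.82 and 4.66 CPM in Puma-/- and 2.11, 3.75, 2.95 and 2.92 CPM in telomerase-deficient libraries (-1.03, adjusted p = 0.107, SE 0.295), without overlap. Slamf1, which encodes CD150, lay at 1.498, 3.21, 2.28 and 2.62 against 1.41, 1.05, 1.599 and 0.986 CPM (-0.93, adjusted p = 0.206, SE 0.353). Cd34 and Kit differed little, with log2 fold changes of -0.0049 and -0.14. Against WT the median of the list was 0.44 in Puma-/- and 0.02 in telomerase-deficient marrow. Growth factor receptors had a median of -0.0023 with 9 higher and 10 lower, and Il5ra alone passed among 19. Lineage transcription factors had a median of -0.058, with 10 higher, 19 lower, 7 at an unadjusted p under 0.05 and 0 past the threshold (2 lower in DESeq2).

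Targets of p53 were higher in telomerase-deficient marrow in 27 of 34, with a median log2 fold change of 0.19. Of these, 3 passed (Bbc3, Cdkn1a and Ccng1, all higher), 12 had an unadjusted p under 0.05 with higher and 1 with lower values, and 7 did not overlap. Bbc3 is the gene deleted in the Puma-/- group, so its difference was set by the design, and against WT its log2 fold change in telomerase-deficient marrow was -0.082. Cdkn1a, the inhibitor of cyclin-dependent kinases (ENSMUSG00000023067, chromosome 17, 29090976 to 29100727), lay at 26.8, 24.8, 23.5 and 23.6 CPM in the Puma-/- libraries and at 56.9, 56.4, 77.5 and 37.5 CPM in the telomerase-deficient libraries, a log2 fold change of 1.21 (adjusted p = 0.0453, SE 0.248). The Puma-/- libraries were tightly grouped, and telomerase-deficient replicate 4 was nearest to them. Cdkn1a had log2 fold changes against WT of 0.51 in telomerase-deficient marrow (adjusted p = 0.998) and -0.70 in Puma-/- (adjusted p = 0.426). Neither passed in edgeR's test. The range of the WT libraries overlapped the ranges of both groups, so the difference is not assigned to either genotype. Ccng1, which encodes cyclin G1, lay at 61.02, 61.5, 58.6 and 61.8 CPM against 89.4, 81.4, 113 and 83.2 CPM (0.59, adjusted p = 0.0433, SE 0.120), with replicate 3 highest. Against WT it had 0.64 in telomerase-deficient marrow (adjusted p = 0.276 in edgeR's test) and 0.045 in Puma-/-. Zmat3, an RNA-binding target, and Phlda3, an inhibitor of AKT, were separated between the groups at 1.03 (adjusted p = 0.0584, SE 0.237) and 1.16 (adjusted p = 0.0677, SE 0.280) and did not pass. Mdm2, the negative regulator of p53, had a log2 fold change of 0.11 (adjusted p = 0.426, SE 0.0688), and Bax, an effector of apoptosis, of 0.42 (adjusted p = 0.100, SE 0.117). Cdkn1a kept its call in 1 of the 8 fits without 1 library (without telomerase-deficient replicate 4) and Ccng1 in 0, and with all 15 libraries Bbc3 alone passed. The summed level of the list was 1079 to 1115 CPM in the Puma-/- and 1179.6 to 1327 CPM in the telomerase-deficient libraries, so those groups did not overlap. Against WT the median of the list was 0.080 in telomerase-deficient and 0.011 in Puma-/- marrow.

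Other inhibitors of cyclin-dependent kinases did not follow Cdkn1a. Of 8 in the list 5 were higher and Cdkn1a alone passed, with Cdkn1c at -0.44 (adjusted p = 0.305) and a median of 0.15. In the BCL2 family and apoptosome 15 of 24 were higher and the deleted gene Bbc3, whose difference was set by the design, alone passed (median 0.074, 7 at an unadjusted p under 0.05). Bid, which links death receptors to mitochondria, lay at 94.3, 87.9, 104 and 93.8 CPM in the Puma-/- and 114, 120.3, 115 and 113 CPM in the telomerase-deficient libraries without overlap (0.28, adjusted p = 0.0665, SE 0.0672). Bcl2a1d had -0.79 (adjusted p = 0.387), and it shares reads with near-identical copies. Genes of telomerase and telomere end protection had a median of 0.048 over 19, with 2 at an unadjusted p under 0.05 and 0 past the threshold in edgeR or DESeq2. Tert, the catalytic subunit of telomerase, lay at 1.57, 2.61, 1.08 and 1.48 CPM against 1.32, 1.45, 1.34 and 1.16 CPM (-0.35, adjusted p = 0.526, SE 0.267) with overlapping groups. Stn1, a subunit of the complex that fills in telomere ends, had lower values in all telomerase-deficient libraries (-0.33, adjusted p = 0.191, SE 0.121).

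Genes of dividing cells were higher in telomerase-deficient marrow by small amounts. All 24 genes of mitosis and the spindle had higher values (median log2 fold change 0.22), 3 passed, 15 had an unadjusted p under 0.05 and 8 did not overlap. Ccnb1, the mitotic cyclin that activates CDK1 (ENSMUSG00000041431, chromosome 13, 100778650 to 100786570), lay at 88.3, 90.8, 95.03 and 86.95 CPM in the Puma-/- libraries and at 115, 149, 109.8 and 117 CPM in the telomerase-deficient libraries (0.44, adjusted p = 0.0431, SE 0.0886). Bub1, a kinase of the spindle checkpoint (ENSMUSG00000027379, chromosome 2, 127801122 to 127831865), lay at 67.96, 63.4, 72.1 and 71.2 CPM against 82.8, 104, 90.98 and 105 CPM (0.48, adjusted p = 0.0410, SE 0.0900). Ttk, the kinase at the top of this checkpoint, lay at 36.3, 35.4, 38.7 and 35.9 CPM against 42.8, 47.2, 44.7 and 48.98 CPM (0.33, adjusted p = 0.0469, SE 0.0676). The groups of all 3 genes were close to each other without overlap.

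Of 28 genes of DNA replication and G1/S, 27 were higher (median 0.17), 2 passed and 14 had an unadjusted p under 0.05. Both genes that passed encode E-type cyclins, which activate CDK2 at the entry into S phase. Ccne1 lay at 26.4, 27.1, 28.8 and 27.96 CPM against 39.6, 43.8, 34.3 and 35.8 CPM (0.48, adjusted p = 0.0429, SE 0.0939) and Ccne2 at 23.3, 19.8, 21.1 and 22.3 CPM against 31.1, 27.4, 31.2 and 30.3 CPM (0.47, adjusted p = 0.0287, SE 0.0820). Rrm2, a subunit of ribonucleotide reductase, had a log2 fold change of 0.41 (adjusted p = 0.0833, SE 0.106) and did not pass. In DNA damage signalling and repair 24 of 28 were higher (median 0.12, 11 at an unadjusted p under 0.05) and 1 passed. The 6 calls in these lists of mitosis, replication and repair rested on the libraries of the fit: 6 were kept without Puma-/- replicate 3, 0 with all 15 libraries, 0 with Xist as a covariate, and 0 without Puma-/- replicate 2 or 4 or telomerase-deficient replicate 3 or 4.

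**Figure D4:**
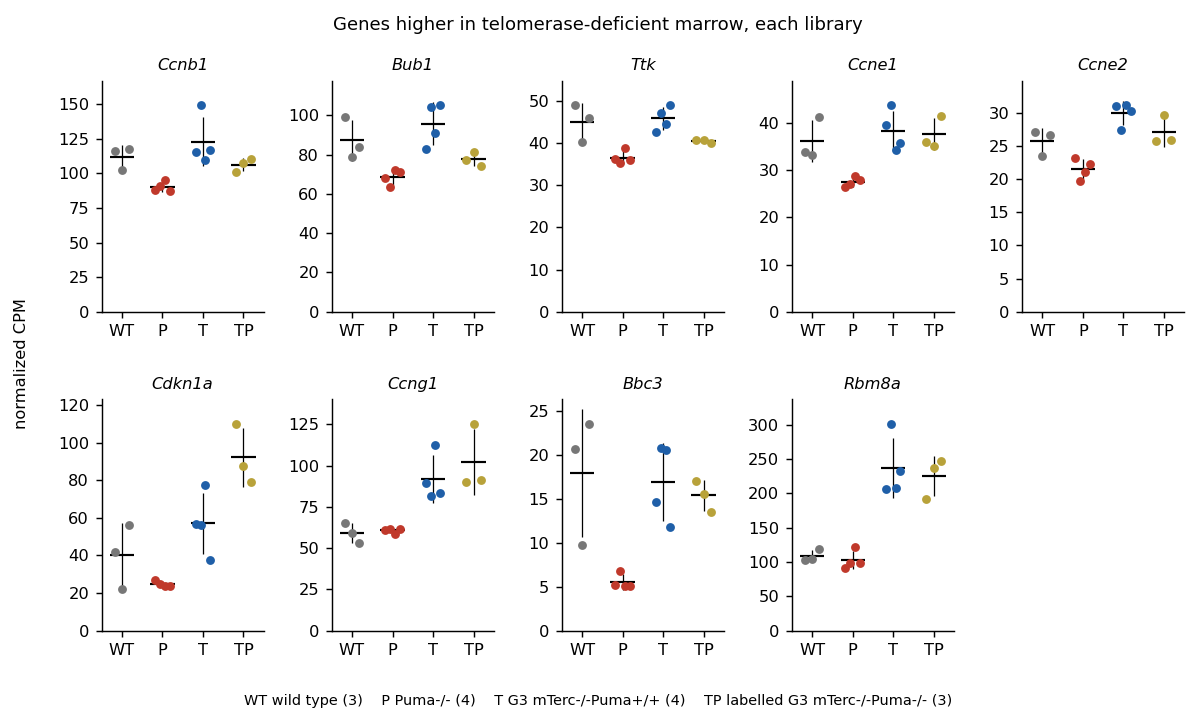
Normalized CPM (vertical axes from 0) per library of genes that were higher in telomerase-deficient than in Puma-/- libraries, with groups and error bars as in the plot of megakaryocyte genes. The telomerase-deficient libraries lie above the Puma-/- libraries in every panel, by more than 2-fold at the mean for Rbm8a, Bbc3 and Cdkn1a and by less for the other genes.

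WT lay nearer to the telomerase-deficient than to the Puma-/- mean for 24 of 24 mitosis genes and 26 of 28 replication genes. Here too WT shared Ddx3y expression with the telomerase-deficient group but held Xist at 1.72 to 417 CPM. The same counts over all autosomal genes are not given here. Against WT the median of the mitosis list was -0.21 in Puma-/- and 0.022 in telomerase-deficient marrow. Promoters of mitotic genes are known for CCAAT boxes bound by NF-Y, and the upstream 250 bases of 2 genes that rose are shown for this reason. Capitals mark CCAAT on either strand, which 34.1% of the 14921 promoters hold. Ccnb1 (chr13:100786487-100786736, minus strand) and Bub1 (chr2:127831860-127832109, minus strand) hold it 2 times each.
Ccnb1: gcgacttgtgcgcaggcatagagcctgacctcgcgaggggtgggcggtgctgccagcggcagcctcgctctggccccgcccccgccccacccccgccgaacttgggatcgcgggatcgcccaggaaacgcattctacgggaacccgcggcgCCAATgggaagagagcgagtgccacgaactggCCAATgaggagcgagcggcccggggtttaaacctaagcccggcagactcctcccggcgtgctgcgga
Bub1: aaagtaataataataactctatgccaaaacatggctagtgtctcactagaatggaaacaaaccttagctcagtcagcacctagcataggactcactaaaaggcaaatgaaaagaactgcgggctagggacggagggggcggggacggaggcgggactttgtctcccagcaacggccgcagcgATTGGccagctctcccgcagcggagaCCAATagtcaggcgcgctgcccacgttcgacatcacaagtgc

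Further genes that rose were picked after their values were seen. With all 15 libraries 0 of those given here passed in edgeR's test, and each kept at most 2 of its 8 calls when 1 library was left out. Ncapg, a condensin subunit, stood at 55.4 ± 2.45 CPM in Puma-/- and 78.3 ± 5.09 CPM in telomerase-deficient marrow (SD, n = 4 each, log2 fold change 0.50, adjusted p = 0.0255, SE 0.0846). Haus3 and Haus6, subunits of the augmin complex of the spindle, had 0.48 and 0.32, and Orc2, which marks replication origins, had 0.45. Xpo1, the main nuclear export receptor, stood at 158 ± 6.66 and 224 ± 19.9 CPM (0.50, adjusted p = 0.0429, SE 0.0980). The zinc finger genes Zfp97, Zfp984, Zfp808 and Zfp958 had 1.01, 0.85, 0.85 and 0.56. D630023F18Rik had the largest rise of the 34 at 2.74, from 0.134, 0.213, 0.125 and 0.0906 CPM in the Puma-/- to 0.739, 0.333, 1.63 and 1.07 CPM in the telomerase-deficient libraries.

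Genes of energy supply and protein folding had mostly higher values in telomerase-deficient marrow without passing the test. All 28 nuclear genes of the respiratory chain were higher (median 0.19, 7 at an unadjusted p under 0.05, 0 past the threshold in edgeR or DESeq2), with Sdhd, a subunit of succinate dehydrogenase, at 0.35 (adjusted p = 0.148, SE 0.113). An unadjusted p under 0.05 was found for 3108 of all 18219 autosomal genes. Of 14 heat shock genes 13 were higher (median 0.31, 6 at an unadjusted p under 0.05, 0 past the threshold, 2 in DESeq2), and the inducible HSP70 gene Hspa1a, which shares reads with Hspa1b, lay at 21.1 to 62.8 CPM in the Puma-/- and 21.04 to 144 CPM in the telomerase-deficient libraries. Ribosomal protein genes were higher in 30 of 36 with a median of 0.04 and 0 at an unadjusted p under 0.05 in edgeR or past the threshold in DESeq2. Inflammatory NF-kB targets had a median of -0.092 (10 higher, 18 lower, 7 at an unadjusted p under 0.05, 0 past the threshold, 3 in DESeq2), with Il1b, the cytokine interleukin-1 beta, at -1.39 (adjusted p = 0.165, SE 0.477). Immediate early genes had a median of -0.036 (10 higher, 12 lower, 0 at an unadjusted p under 0.05, 0 past the threshold in DESeq2).

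**Figure D5:**
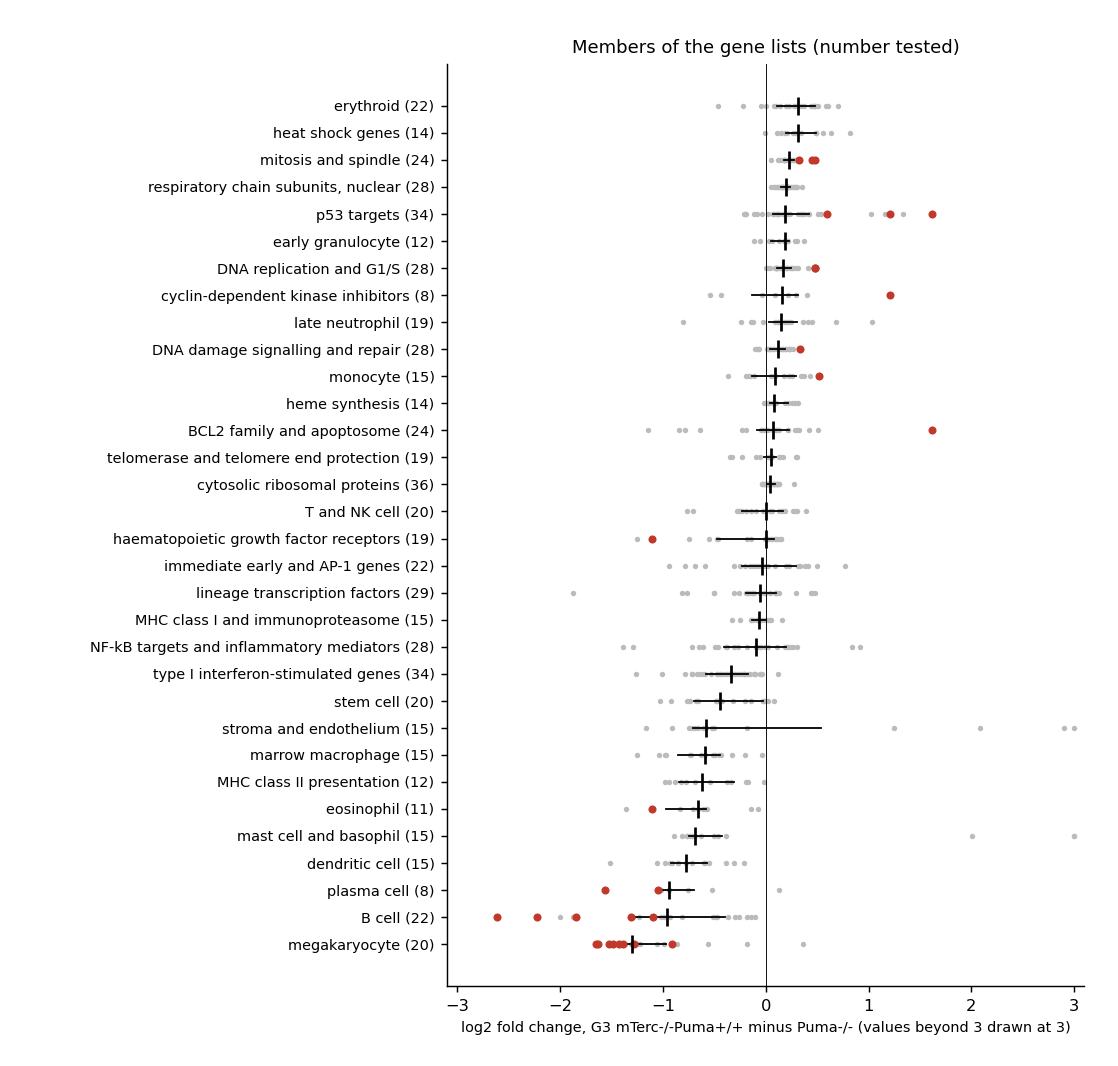
Log2 fold changes (G3 mTerc-/-Puma+/+ minus Puma-/-, horizontal axis, values beyond 3 drawn at 3) of the members of each gene list, with a point per gene, red for genes past the threshold, a vertical tick at the median and a horizontal line over the middle quartiles. The list medians run from -1.30 for megakaryocyte genes to 0.32 for erythroid genes, while the median over all autosomal genes is -7.1e-05.

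A gene whose rise passed in every fit without 1 library lay close to one of the targeted loci. Rbm8a, which encodes the exon junction protein Y14 (ENSMUSG00000038374, chromosome 3, 96629933 to 96633791), lay at 91.4, 98.5, 121 and 98.4 CPM in the Puma-/- libraries and at 207, 301, 209 and 233 CPM in the telomerase-deficient libraries, a log2 fold change of 1.21 (adjusted p = 0.000600, SE 0.131). The groups were far apart, and it passed in 8 of the 8 fits without 1 library with log2 fold changes of 1.08 to 1.30. It stood at 109 ± 8.99 CPM in WT (n = 3), close to Puma-/-, and at 226 ± 29.5 CPM in those labelled G3 mTerc-/-Puma-/- (n = 3), close to the telomerase-deficient mean. In WT replicates 1 to 3 it lay at 103, 105 and 119 CPM, and Xist at 417, 211 and 1.72 CPM. In replicates 1, 3 and 4 of the double label it lay at 192, 237 and 247 CPM, and Xist at 660, 0.386 and 443 CPM. The part of sex in this gene was not tested. Rbm8a lies 217.2 kb from Terc, so that loss of telomerase and the DNA that flanks the mutant locus cannot be told apart for it. Copies of its coding sequence elsewhere in the genome make its count uncertain. Within 10 Mb of Terc 4 of 362 genes tested passed (1.1%, Rbm8a higher and the other 3 lower), and within 1 Mb of it 2 of 70 (2.86%). Within 10 Mb of Bbc3 2 of 190 passed (1.05%), both lower, and within 1 Mb 0 of 32. The second of these was Apoe, a lipid carrier protein of macrophages and plasma, which lay at 183, 189.6, 172 and 171 CPM against 97.1, 59.3, 77.04 and 89.6 CPM (-1.15, adjusted p = 0.0201, SE 0.187) without overlap. Over single chromosomes the share past the threshold ran from 0.241% on chromosome 10 to 1.41% on chromosome 16.

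The remaining genes named by the rule fell as well. The long noncoding RNA 9430002A10Rik lay at 1.51, 1.72, 2.68 and 1.61 CPM in Puma-/- and at 0.395, 0.480, 0.375 and 0.353 CPM in telomerase-deficient libraries (-2.23, adjusted p = 0.000816, SE 0.249) and passed in 8 of the 8 fits without 1 library. Cdc42ep5, an effector of the GTPase CDC42, lay at 1.16, 1.21, 1.01 and 0.725 CPM against 0.490, 0.294, 0.308 and 0.288 CPM (-1.57, adjusted p = 0.0281, SE 0.270). For both genes the groups stayed apart. Among genes picked after their values were seen, of which 0 passed with all 15 libraries in edgeR's test and each kept 1 of 8 calls without 1 library, Csf1, the growth factor of macrophages, stood at 65.2 ± 7.78 CPM and 39.5 ± 4.42 CPM (SD, n = 4 each, log2 fold change -0.73, adjusted p = 0.0429, SE 0.139), S1pr5, a sphingosine phosphate receptor, at 4.902 ± 1.81 and 0.988 ± 0.455 CPM (-2.31, adjusted p = 0.0429, SE 0.445), and Prkca, a protein kinase C, at 19.6 ± 3.103 and 11.6 ± 0.689 CPM (-0.75, adjusted p = 0.0429, SE 0.147).

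The 138 genes were chosen for a difference between the 2 single mutants, so another group is likely to fall between them. The same shares over all autosomal genes are not given here. Over the 138 genes together, WT lay between the 2 single mutants for 127, nearer to the telomerase-deficient mean for 104 and nearer to the Puma-/- mean for 33. For the genes that rose the nearer counts were 28 and 5, and for those that fell 76 and 28. WT and the telomerase-deficient group both expressed Ddx3y, but Xist ran from 1.72 to 417 CPM in WT, so WT is matched in sex to neither group. Sex and Puma genotype cannot be told apart in these counts. Among the lists, WT lay nearer to Puma-/- for more than 0.5 of the members in 8, namely for 7 of 8 plasma cell, 14 of 22 B cell, 11 of 12 early granulocyte, 12 of 19 late neutrophil, 12 of 15 dendritic cell, 17 of 28 NF-kB target, 13 of 22 immediate early and 8 of 14 heme synthesis genes. The libraries labelled G3 mTerc-/-Puma-/- lay nearer to the telomerase-deficient mean for 85 of the 138 and nearer to the Puma-/- mean for 53, and between the 2 means for 96.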

How the data were processed

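RNA of lineage marker-negative marrow cells was extracted with RNeasy Micro and made into libraries with the TruSeq Stranded mRNA kit. Per the labels, the authors trimmed reads with Trimmomatic 0.38 and aligned them to mm10 with STAR 2.5.2b, and the deposited table holds raw counts per gene. The strand setting and annotation release of the counting are not given in the sources used here. Libraries were matched to groups by title, and replicates of a group differed by far more than sampling noise (chi-square per gene 39.9 to 286 over the 8 libraries).

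Counts were fitted in R 4.3.3 with edgeR 4.0.16 (TMM, filterByExpr, glmQLFit and glmQLFTest) over 14 libraries with 1 coefficient per genotype, and p-values were adjusted by Benjamini-Hochberg over 18983 genes with a threshold of 0.05. Alternatives used DESeq2 1.42.0, limma 3.58.1, sva 3.50.0, other filters, scalings and covariates, and fits without each library. The script steps were tested on simulated data. The gene lists and the comparison were chosen with earlier results of these data known. Genes were named if they passed with 14 and with 15 libraries, did not overlap between groups and reached 1 CPM in the higher group (the 12 largest rises and 12 largest falls, of which 2 and 12 existed), if they were list members past the threshold, or as the 2 members of each list with the largest change at 1 CPM or more. Hrk, Ahsp and Marco did not pass the filter, and the X-linked Ndufa1 was left out. Promoters and coordinates are those of GRCm38.p6, and promoters were found for 27 of 34 and 72 of 104 genes past the threshold (79.4% and 69.2%), so that motif shares over these genes are void and not given. A depth of at least 105447530 counts per library makes counting error small beside the spread between libraries except for genes with few counts, such as Terc. Results for some genes past the threshold or in the lists are not reported here.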

Additional observations from a re-analysis of the deposited data

Results flagged for a closer look

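Among the 33 named genes past the threshold, each of the 2 groups of 4 libraries was searched for a library far from the other 3. This was found in 6 of 66 groups, where chance gives about 1 in 20 if the groups are independent. These genes were chosen in the same data and in part vary together, so the count cannot show an excess. Puma-/- replicate 3 was the highest library for Treml1 (22.9 CPM, next 11.6), Gp1bb (13.9 CPM, next 8.03) and Mrvi1 (13.98 CPM, next 11.8). Telomerase-deficient replicate 2 was the lowest for Itgb3 (25.1 CPM, next 46.3), and telomerase-deficient replicate 1 the highest for Cdc42ep5 (0.490 CPM, next 0.308). Puma-/- replicate 2 was the highest for Bbc3 (6.80 CPM, next 5.15). In each case the 4 libraries of one group still lay outside the range of the other.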

How the results depend on the processing

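Against 138 autosomal genes past the threshold (34 higher, 104 lower), the count was 17 (2, 15) with all 15 libraries, 114 (20, 94) with the 8 libraries alone, 100 (23, 77) by library size alone, 171 (54, 117) with DESeq2 size factors, 158 (45, 113) with at least 10 counts in 4 libraries, 144 (36, 108) with no filter, 83 (19, 64) with X and Y genes removed before the fit, 945 (408, 537) in DESeq2, 145 (32, 113) in limma-voom, 1263 (558, 705) with sample weights, 12 (1, 11) with Xist as a covariate, 97 (41, 56) with 2 surrogate variables and 9 (1, 8) with a minimum fold change of 0.5 on the log2 scale. Leaving out 1 library gave 12 to 152 genes, 1 to 70 higher and 11 to 82 lower. The 138 genes kept their sign in all of these fits, which their choice in the same libraries, without overlap, largely set. The cause of the differences was not tested. A fit with the replicate number as a block gave 34 genes (6, 28), 29 of them among the 138. Deviations of same-numbered libraries had correlations of 0.136, -0.137, 0.053 and 0.0128, so the numbers were not treated as pairs. The genotype share of distances was 23.2% (exact permutation p = 0.0571) with genes scaled to unit variance, 27.1% over the 1000 most variable genes, and 25.2% to 30.8% without 1 library (exact p = 0.0571 without Puma-/- replicate 4). The list medians of the megakaryocyte genes (-0.9988 with weights, -0.99 with Xist), the CDK inhibitors (0.022 with weights), telomere genes (0.0016 by library size), NF-kB targets (-0.34 with surrogate variables) and immediate early genes (-0.53 with surrogate variables) moved by more than the spread between replicates. Among the others, T and NK cell genes reached -0.49 without telomerase-deficient replicate 1, stroma -0.15 with surrogate variables, and plasma and mast cell genes -1.32 and -0.34 with Xist. The median changed sign in at least 1 fit for 8 lists (T and NK cell, early granulocyte, late neutrophil, ribosomal, MHC class I, immediate early, growth factor receptor and lineage transcription factor genes). Library size alone shifted the median of all genes by -0.043. Sex, and the few counts of Terc, limit what can be compared.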
